A study of Homo sapiens with 4 samples.

Results

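Of the 149676 intervals of open chromatin called in C4-2B cells, 26279 lay between genes and had no counterpart in C4-2BER cells. These lost intergenic intervals were chosen by the measured peak calls. A C4-2B interval was a member when it had 0 bp of overlap with any C4-2BER interval, when its midpoint was more than 2000 bp from every transcription start site (TSS) of a protein-coding transcript, and when that midpoint was outside every protein-coding gene body. The other intergenic C4-2B intervals, 37609 in number, overlapped a C4-2BER interval and are called kept. The 11629 intergenic C4-2BER intervals without C4-2B overlap are called gained.

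Open chromatin was mapped with ATAC-seq, which uses a transposase, Tn5, to insert sequencing adapters into exposed DNA. C4-2B is a line of human prostate adenocarcinoma, and C4-2BER, whose libraries are titled Enza_Resist and typed as neuroendocrine-like, was obtained from it by continuous exposure to enzalutamide, an inhibitor of androgen signalling. Both were grown in RPMI with serum, C4-2BER with enzalutamide kept in its medium according to the methods of the study, and each is a single line. The presence of the drug and the state of the line therefore cannot be told apart. The 2 libraries of each line were merged by the authors before peaks were called, so there was 1 list per line, no spread between replicates, no test and no p-value. Intervals of 95% given below are Wilson intervals on counts, or Newcombe intervals on differences, and cover counting error only. Those on neighbouring intervals cover less than that.

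Most regulatory DNA of the genome lies outside promoters. Enhancers are bound by combinations of transcription factors, and their accessibility differs more between cell types than that of promoters. In prostate luminal cells androgen signalling acts at such distal sites through a palindrome of hexamers, often beside forkhead factors such as FOXA1, which can bind closed chromatin. CTCF, which anchors chromatin loops, occupies sites that are largely shared between cell types.

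The sequences below are the 201 bases around the summits of 6 of the lost intervals of highest −log10 q among those that held an androgen response element, here GNACA and TGTNC separated by 3 bases. The choice is not complete, since the sequence of the member near PENK, whose −log10 q was above that of 5 of the 6, is not shown. They are given because this element was, of the 20 motifs searched, the one with the highest ratio of its share in lost to its share in kept intervals. Capitals mark the element and, where present, the forkhead motif TGTTTAC or its reverse complement. All are the plus strand of hg38, and the symbol is that of the nearest protein-coding TSS.
FBXO15, chr18:73756368-73756568: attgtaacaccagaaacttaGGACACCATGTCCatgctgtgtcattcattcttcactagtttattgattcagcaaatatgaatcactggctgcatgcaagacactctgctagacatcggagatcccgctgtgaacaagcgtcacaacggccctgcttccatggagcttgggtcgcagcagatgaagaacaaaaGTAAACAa
H2AZ1, chr4:100018041-100018241: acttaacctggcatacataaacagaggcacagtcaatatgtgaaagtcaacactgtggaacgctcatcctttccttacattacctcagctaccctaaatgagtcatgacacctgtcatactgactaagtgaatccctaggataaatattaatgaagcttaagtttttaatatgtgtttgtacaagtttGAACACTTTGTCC
BARX2, chr11:129538341-129538541: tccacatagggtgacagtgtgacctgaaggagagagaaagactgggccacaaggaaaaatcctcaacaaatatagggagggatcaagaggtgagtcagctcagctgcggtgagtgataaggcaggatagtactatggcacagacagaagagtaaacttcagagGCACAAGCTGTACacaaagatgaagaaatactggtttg
SLC25A13, chr7:96349676-96349876: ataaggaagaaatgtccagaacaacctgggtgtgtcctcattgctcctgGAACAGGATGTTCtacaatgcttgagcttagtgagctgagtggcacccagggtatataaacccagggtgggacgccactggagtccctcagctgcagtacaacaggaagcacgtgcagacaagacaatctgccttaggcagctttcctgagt
LDLRAD3, chr11:35908113-35908313: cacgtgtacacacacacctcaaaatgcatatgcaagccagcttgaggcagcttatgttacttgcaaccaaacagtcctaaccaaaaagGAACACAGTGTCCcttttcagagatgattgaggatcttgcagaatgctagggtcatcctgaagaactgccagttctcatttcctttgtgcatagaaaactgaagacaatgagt
DYSF, chr2:71700284-71700484: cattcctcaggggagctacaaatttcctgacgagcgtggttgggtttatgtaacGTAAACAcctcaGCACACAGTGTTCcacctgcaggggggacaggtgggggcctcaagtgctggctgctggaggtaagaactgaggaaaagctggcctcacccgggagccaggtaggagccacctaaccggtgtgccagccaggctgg

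These 6 summits held 165 reads (FBXO15), 125 (H2AZ1), 115 (BARX2), 114 (SLC25A13), 120 (LDLRAD3) and 99 (DYSF) in C4-2B. The centre of the element lay 6 bp from the summit at LDLRAD3 and 28 bp at DYSF, and 94 bp at H2AZ1, the most distant of the 6. The intervals near FBXO15 and DYSF held the forkhead motif as well. The nearest C4-2BER interval was between 1599 bp (LDLRAD3) and 27469 bp (DYSF) away.

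Intergenic intervals were lost more often than the others. The 26279 members were 41.1% of the 63888 intergenic C4-2B intervals (95% interval 40.8 to 41.5). Because this overlap chose the members, the percentage is their background and no finding about them. Among C4-2B intervals in genes or near a TSS, 35.2% (34.9 to 35.5) had no C4-2BER overlap. Promoter and intronic intervals were not separated there, so a difference between intergenic and intronic intervals was not tested. In the reverse direction, the 11629 gained intervals were 23.4% (23.04 to 23.8) of the intergenic C4-2BER intervals. The C4-2B list was the longer one and came from 1.20 times as many reads. Reads of weaker C4-2BER sites are unknown, because the list holds called intervals only, so a lost interval is one that was not called.

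Lost intervals were mostly weak ones. Their summits held a median of 18 reads (quartiles 14 and 26), against 34 reads in kept intervals and 13 in gained ones. Their median fold enrichment over the local background was 4.94, against 7.97 in kept and 4.49 in gained intervals. They were also narrower, with a median width of 282 bp against 436 bp, and 94.3% of them had 1 summit against 81.5% of kept intervals. Among members, 9744 had a −log10 q of 10 or more (37.1%), as did 76.6% of kept intervals and 17.6% of gained ones. Of all intergenic C4-2B intervals at that level, 25.3% were members.

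The share lost fell with the number of reads at the summit. It was 76.6% (74.7 to 78.4) at up to 10 reads, 40.9% (40.1 to 41.7) at 21 to 30 reads, 20.2% (19.3 to 21.0) at 41 to 60 reads and 4.84% (4.03 to 5.79) at 101 to 150 reads. Above 150 reads, 3 of 445 intervals were lost. Most members were well separated from open chromatin of the other line. The median gap to the nearest C4-2BER interval was 7844 bp (quartiles 2978 and 19002), and 1952 members (7.43%) had a gap under 500 bp. At the limit of the overlap rule, a member near PYGL on chromosome 14 touched a C4-2BER interval with 0 bp of overlap (14 reads), and a kept interval near UBL3 on chromosome 13 overlapped by 1 bp (11 reads). At the limit of the distance rule, the member closest to a TSS lay 2004 bp from SEMA3C with 35 reads, and an interval at 2000 bp from NADK2 with 59 reads was left out.

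The strongest lost interval lay nearest to FEM1C, which encodes a substrate receptor of a ubiquitin ligase. It covered chr5:115490401-115491246, 53951 bp downstream of the TSS, and held 144 reads over a background of 5.94 per 200 bp (fold 20.9, −log10 q 138). Scaled to the C4-2BER depth these correspond to 120 reads, where 13 would have passed the lowest p-value of that list at a background scaled likewise. The nearest C4-2BER interval was 32003 bp away.
The interval next in rank, 17595 bp upstream of the TSS of SWAP70, a regulator of actin at the membrane, held 134 reads (fold 19.8, −log10 q 125). That near MAB21L3 held 132 reads (fold 19.5) and lay 60952 bp downstream of the TSS, with a C4-2BER interval 3777 bp away.
The other 7 of the 10 strongest lay near CD180, TMEM161B, FBXO15, RIOK2, PENK, GADD45G and H2AZ1, with 125 to 165 reads and −log10 q of 114 to 120, at 37615 bp (TMEM161B) to 461140 bp (RIOK2) from the TSS. PENK encodes the precursor of enkephalins, RIOK2 a kinase of ribosome assembly and H2AZ1 a histone variant. Of the 10, those near FBXO15, PENK and H2AZ1 held an androgen response element, and 8 held its half-site AGAACA. The widest gap to a C4-2BER interval, 109317 bp, was that of the member near RIOK2.

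An androgen response element lay within 100 bp of the summit in 770 lost intervals, 2.93% (2.73 to 3.14). It was found in 320 kept intervals, 0.851% (0.763 to 0.949), and in 26 gained ones, 0.224% (0.153 to 0.327). The difference between lost and kept was 2.08 percentage points (1.86 to 2.31), a ratio of 3.44. Over the 201-bp windows of all C4-2B intervals, genes and promoters included, the share was 1.56%. Taken the other way round, 770 of the 1090 intergenic intervals with the element were lost, 70.6% (67.9 to 73.3), against 40.6% (40.2 to 41.0) of those without it. At a −log10 q of at least 10, 60.3% (56.8 to 63.8) of intervals with the element and 24.6% (24.1 to 25.02) of those without it were lost.

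The excess was present across levels of accessibility, other than the highest. At 11 to 15 summit reads, 95.9% (91.3 to 98.1) of intervals with the element were lost against 69.1% (68.3 to 69.9) of the rest. At 41 to 60 reads the shares were 59.1% (51.5 to 66.4) and 19.4% (18.6 to 20.3). At 101 to 150 reads they were 21.2% (13.8 to 31.0) and 4.21% (3.46 to 5.13). Above 150 reads 1 of 12 intervals with the element was lost, and the intervals of the 2 shares overlapped. Members with the element were stronger than members without it, with a median of 24 reads (95% interval of the median 22 to 25) against 18 (17 to 18). Kept intervals with the element were stronger still, with a median of 64 reads (58 to 70) against 34 in kept intervals without it.

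**Figure D1:**
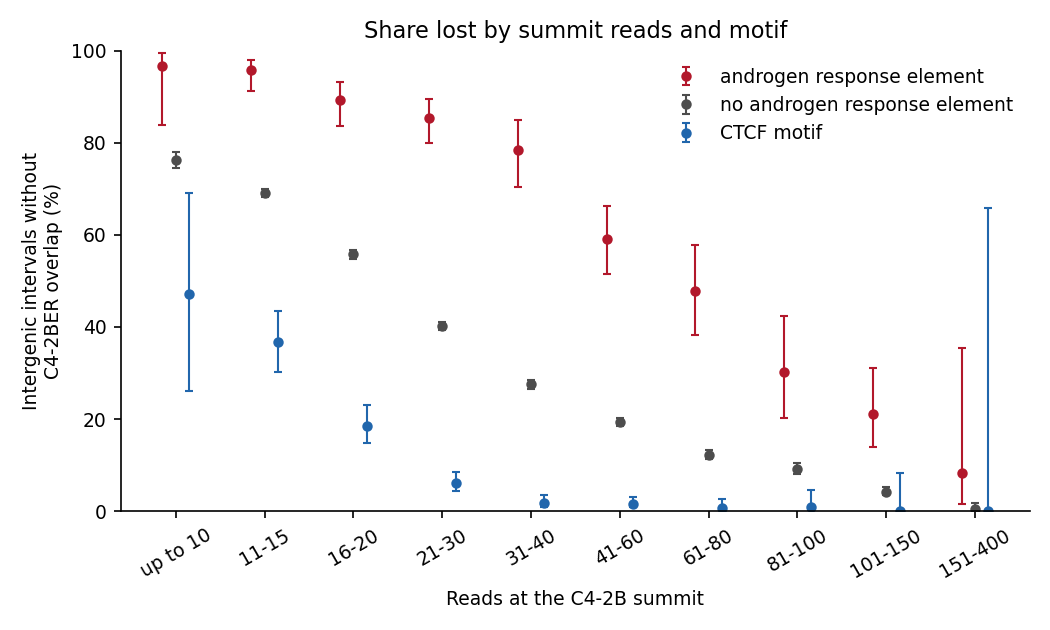
The percentage of intergenic C4-2B intervals without C4-2BER overlap (y axis) is plotted by the number of reads at the C4-2B summit (x axis, 10 bins) for intervals with an androgen response element, without one, and with a CTCF motif; bars are 95% Wilson intervals. At 41 to 60 reads the shares lost were 59.1% with the element, 19.4% without it and 1.53% with a CTCF motif.

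The 770 members with the element were spread over the genome. They were nearest to 692 genes, of which 627 had 1 such member, 53 had 2 and 12 had at least 3. The most, 4 of 4 intervals with the element, were nearest to TMEM121 at the distal end of chromosome 14. EPHA3, an ephrin receptor, had 3 of 4, and LRRC4C and LSAMP, neuronal adhesion molecules, had 3 of 3 each (genes named after their values were seen). Of the 770, 4 (0.519%) had another such member within 10 kb and 84 (10.9%) within 100 kb. The shares to be met at such a low density were not computed. Their median distance to a TSS, 84061 bp (77584 to 94788), was close to that of members without the element, 85951 bp (83684 to 88037). The element lay a median of 29.5 bp from the summit in lost intervals and 34 bp in kept ones. Within 25 bp of the summit it was found in 44.03% (40.6 to 47.6) and 39.7% (34.5 to 45.1). Both hexamers had the letters AGAACA in 3.77% of members with the element and 3.44% of kept intervals with it.

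CTCF sites showed the opposite. The CTCF motif was in 0.746% of lost intervals, 6.04% of kept and 2.06% of gained ones. Of 2467 intergenic C4-2B intervals with the motif, 196 were lost, 7.94% (6.94 to 9.08). At a −log10 q of at least 10 this was 2.29% (1.71 to 3.06). The share lost fell from 36.6% (30.3 to 43.5) at 11 to 15 reads to 1.53% (0.777 to 2.99) at 41 to 60 reads. The ETS motif CCGGAA was in 2.26% of lost and 4.05% of kept intervals, and the grainyhead motif, AACC followed by GGTT, in 0.141% and 0.348%.

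Forkhead, GATA, SOX and AP-1 motifs were more frequent in lost than in kept intervals, but much of this went with base composition. Other A- and T-rich motifs were not all so, since the differences for the HOXB13, octamer and PBX-HOX motifs had 95% intervals that included 0. The forkhead motif was in 13.03% (12.6 to 13.4) of lost, 10.3% (9.96 to 10.6) of kept and 7.21% (6.75 to 7.69) of gained intervals. The androgen half-site AGAACA was in 23.2% of lost, 16.4% of kept and 13.8% of gained intervals, and overlaps the full element where the latter holds these letters. GATA sites (AGATAA) were in 15.02% of lost and 11.7% of kept, AP-1 sites (TGANTCA) in 11.7% and 10.8%, and SOX sites (AACAATG) in 4.51% and 3.28%.
After the lost intervals were weighted to the GC content of the kept ones, the difference was 1.99 percentage points for the androgen response element and 4.40 for the half-site. For forkhead it was 0.816 in place of 2.76, for GATA 0.341 in place of 3.37, for SOX 0.370 in place of 1.23 and for AP-1 0.441 in place of 0.943. The E-box CAGCTG was in 12.9% of lost and 14.3% of kept intervals, and its difference changed sign, from −1.38 to 1.07 percentage points. For CTCF the weighted difference was −5.16. Of the 20 motifs, the 95% interval of the unweighted difference excluded 0 for 11, with 7 higher and 4 lower in lost intervals.

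**Figure D2:**
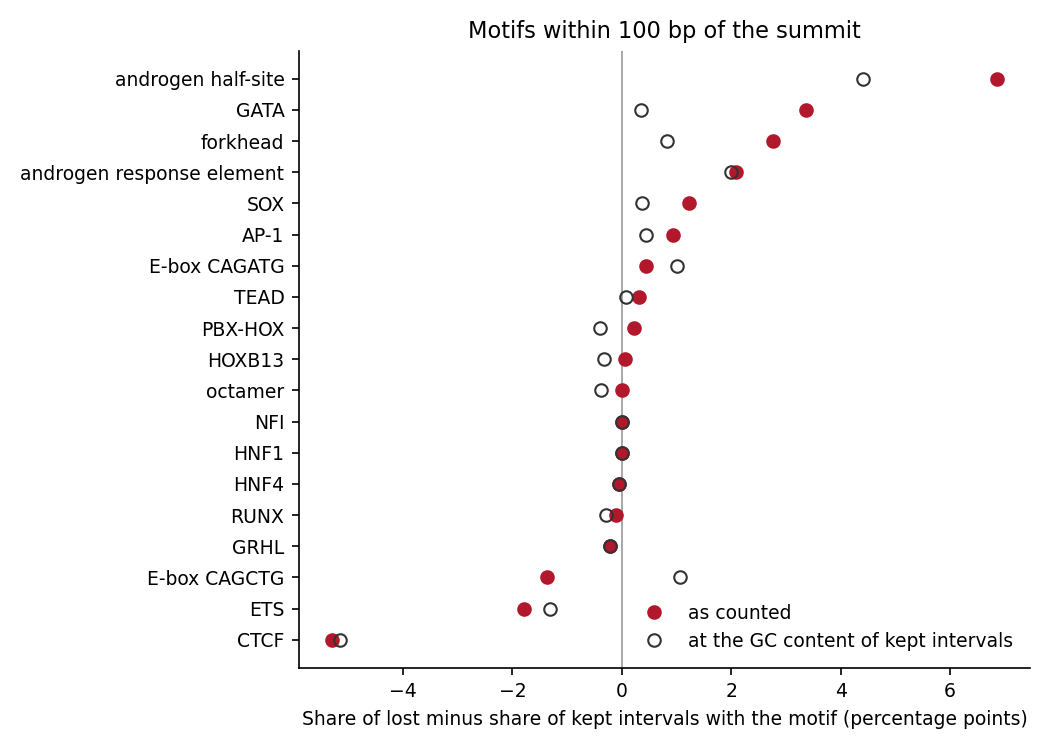
For each motif shown (y axis), the share of lost minus the share of kept intergenic C4-2B intervals with a match within 100 bp of the summit is plotted in percentage points (x axis), as counted (filled) and after weighting lost intervals to the GC content of kept ones (open). The androgen response element moved from 2.08 to 1.99 and CTCF from −5.29 to −5.16, while GATA moved from 3.37 to 0.341.

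An androgen response element and a forkhead motif were found together in 64 members. Among members with the element, 8.31% (6.56 to 10.5) had the forkhead motif, below the 13.2% (12.8 to 13.6) of members without it. In kept intervals the shares were 9.69% (6.91 to 13.4) and 10.3% (9.97 to 10.6), whose intervals overlapped. Most members, 84.3%, had neither motif.

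Lost intervals were lower in GC content than kept and gained ones. Their median GC content was 45.3% against 48.8% in both kept and gained intervals, and 20.8% of members had no CpG in the 201 bp around the summit against 13.1% of kept intervals. Across deciles of GC content, the share lost fell from 59.1% (57.8 to 60.3) in the lowest to 22.5% (21.5 to 23.6) in the highest. At a −log10 q of at least 10 it fell from 46.0% (44.3 to 47.8) to 7.56% (6.82 to 8.36), so the gradient was present among strong intervals as well. The GC content of the reads of each library was not tested, since only merged lists were used here.

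**Figure D3:**
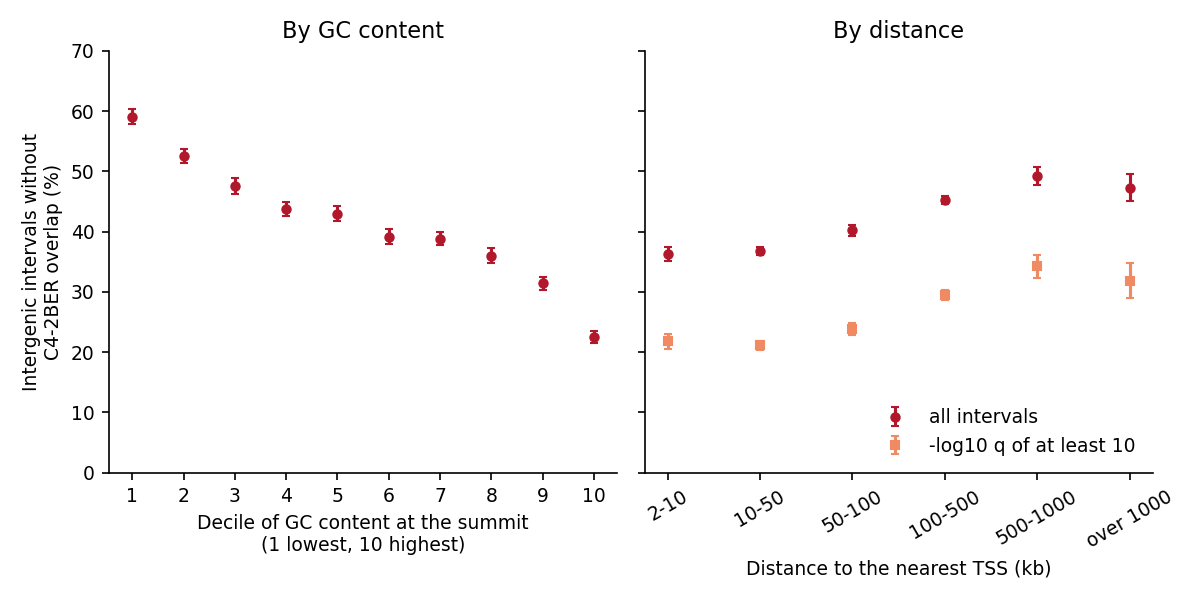
The percentage of intergenic C4-2B intervals without C4-2BER overlap (y axis) is plotted by decile of GC content in 201 bp around the summit (left) and by distance to the nearest protein-coding TSS in kb (right, all intervals and those with a −log10 q of at least 10); bars are 95% Wilson intervals. It fell from 59.1% to 22.5% across GC deciles and was 36.3% at 2 to 10 kb and 49.2% at 500 to 1000 kb.

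Lost intervals lay farther from genes than kept ones. The median distance to the nearest TSS was 85858 bp (83680 to 87930) for lost, 60565 bp (59328 to 61641) for kept and 74919 bp (72443 to 78322) for gained intervals. More than 100 kb from a TSS were 46.2% of lost and 37.7% of kept intervals. The stretch free of protein-coding genes around a member had a median length of 335928 bp, against 228957 bp around a kept interval. The share lost was 36.3% (35.2 to 37.5) at 2 to 10 kb, 45.3% (44.6 to 46.0) at 100 to 500 kb and 49.2% (47.7 to 50.7) at 500 to 1000 kb. At a −log10 q of at least 10 these shares were 21.8%, 29.5% and 34.2%. The androgen response element did not follow distance, being in 2.79% (2.21 to 3.52) of members at 2 to 10 kb and in 2.55% (1.963 to 3.30) at 500 to 1000 kb. Orientation differed little, with 60.03% of lost and 60.2% of kept intervals upstream of the nearest gene. The members farthest from a TSS, at 5397714 bp from TPTE on chromosome 21 and at 4834882 and 4470726 bp from OR11H1 on chromosome 22, were weak (12, 14 and 12 reads) and lay in the gene-poor short arms.

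**Figure D4:**
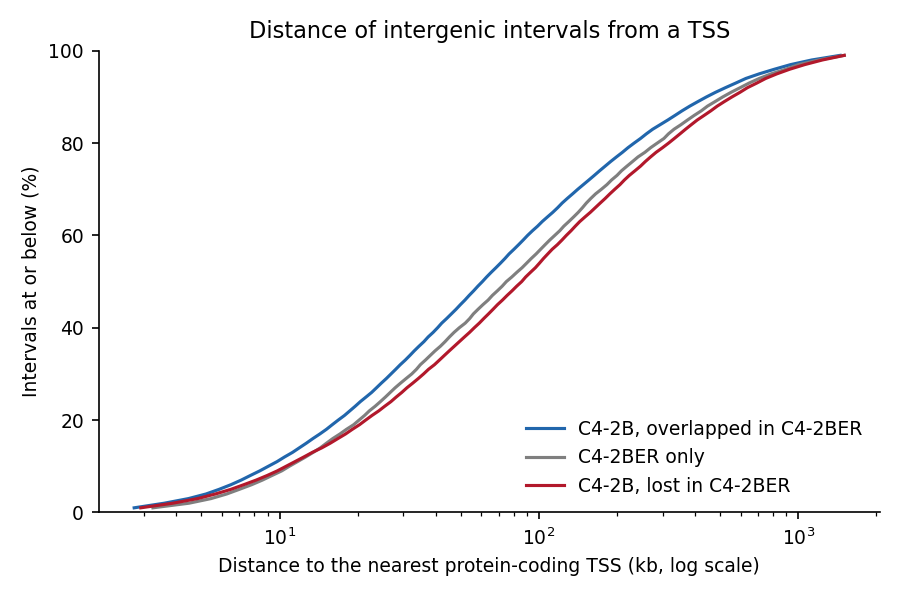
The cumulative percentage of intergenic intervals (y axis) is plotted against the distance to the nearest protein-coding TSS in kb (x axis, log scale) for lost, kept and gained intervals, from the 1st to the 99th percentile. The curve of lost intervals lies to the right of that of kept ones, with medians of 85858 and 60565 bp.

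By chromosome, the share lost was between 31.6% (29.0 to 34.3) on chromosome 19, where genes are dense, and 46.6% (44.4 to 48.8) on the X chromosome. Noncoding genes were not part of the rule. Of the members, 28.6% lay inside a gene of a long noncoding RNA, as did 28.2% of kept intervals, and 5.67% (5.39 to 5.95) were within 2000 bp of the TSS of one, against 9.46% (9.16 to 9.76). MIR99AHG, the host of a microRNA cluster on chromosome 21 (named after the values were seen), held the most, 42. Its share lost was not computed, so this count is no sign of excess loss there. Among prostate cancer RNAs, named after the values were seen, PCAT1 held 12 members of 33 intergenic intervals, DRAIC 11 of 35 and SCHLAP1 7 of 14. Of the same list, NEAT1 held 3 of 8, CASC19 2 of 6, and PRNCR1 and MALAT1 0 of 2 each. The background was 41.1%.

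The nearest genes numbered 7418, which is 37.7% of the 19689 protein-coding genes with a TSS. Of these, 2944 had a single member, and the median was 2. A further 582 genes had at least 10 members each and together held 9052 of them. The nearest gene is a label of position, and no target gene was measured.
The 10 genes with the most members stood beside long stretches without protein-coding genes, though genes of other types can lie there. USP25, a deubiquitinase on chromosome 21, was nearest to 48 lost of 93 intergenic intervals (51.6%, 41.6 to 61.5), yet 6 of 44 whose −log10 q reached 10 were lost. MYC, the oncogene whose distal enhancers extend across a wide desert on chromosome 8, had 45 of 94 (47.9%, 38.1 to 57.9), and 18 of 59 strong ones. FLRT2, an adhesion molecule, had 38 of 69 (55.1%) and 19 of 38 strong ones. PLA2G4A, a cytosolic phospholipase, had 36 of 59 (61.0%, 48.3 to 72.4) and 12 of 29 strong ones.
PCDH7, a protocadherin, had 41 of 69, PIK3C3, a lipid kinase of autophagy, 42 of 80, UQCRFS1, a subunit of respiratory complex III, 41 of 81, and NR2F2, an orphan nuclear receptor, 35 of 69. The 2 lowest shares of these genes were those of TPTE (43 of 117, 36.8%) and TMEM121 (36 of 126, 28.6%).

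No gene with many intergenic intervals lost nearly all of them. Of the 1031 genes nearest to at least 15 of them, 0 had lost 90%. The shares ran from 5.88% to 80.8% with a median of 45.5%. The ends of this range, named after the values were seen, were WNT7B, a WNT ligand, with 1 of 17 lost, and TNP1, a nuclear protein of spermatids, with 21 of 26 lost (80.8%, 62.1 to 91.5). At RUNX1T1, a transcriptional corepressor picked from the 1031 after the values were seen, 13 of 17 were lost. These included 6 of 6 whose −log10 q reached 10, a level at which 25.3% of all intergenic C4-2B intervals were lost.
The share lost differed little with the promoter of the nearest gene. A promoter interval in both lines was present for the nearest gene of 81.5% of lost and 81.0% of kept intervals. Where the promoter was called in C4-2B alone, 38.6% (36.2 to 41.1) of the intergenic intervals were lost, and where it was called in C4-2BER alone, 40.7% (38.8 to 42.6).

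Neighbouring intervals were lost together slightly more often than apart. The intergenic C4-2B interval next to a member was lost in 43.3% (42.9 to 43.8) of cases, and that next to a kept interval in 39.6% (39.3 to 39.95). The contrast was widest in close pairs. Within 2 kb the shares were 50.5% (49.3 to 51.7) and 36.7% (35.7 to 37.7), and at 2 to 10 kb they were 41.3% (40.5 to 42.1) and 40.4% (39.7 to 41.0), whose intervals overlapped. At 10 to 50 kb they were 43.1% (42.5 to 43.8) and 39.9% (39.4 to 40.5), and beyond 50 kb 42.03% (41.1 to 42.98) and 39.6% (38.8 to 40.4). Among strong intervals, with −log10 q at 10 or more, the neighbour was lost in 28.4% (27.7 to 29.0) and 24.2% (23.9 to 24.6).

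Most members stood alone. When members within 10 kb of each other were joined, 16505 (62.8%) had no partner, and another member lay within 10 kb for 37.2% (36.6 to 37.8). Another interval of the same class lay that close for 46.5% (46.02 to 47.03) of kept and 25.1% (24.3 to 25.9) of gained intervals, classes that differ in size from the members. At least 5 members were joined in 57 clusters, which held 307 of them. The largest, of 7 members each, were near PRR23E (chr3:127103187-127124480) and 102563 bp in the median from the TSS of MYC (chr8:127822695-127849224). Each also held 1 kept interval and 1 member whose −log10 q reached 10. The 7 members near MYC had 14 to 76 reads. Of the 18 clusters of 6, those near ACBD6, IRF2BPL and TRIM33 had the strongest members by −log10 q. The last 2 held 0 kept intervals, though 1 C4-2BER interval lay within each. None of these 5 clusters held an androgen response element. The element was in 2.93% of all members, so few would be met in clusters of 6 or 7.

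Consecutive intergenic C4-2B intervals that were all lost formed 14895 runs, of which 8581 were of 1 interval, 600 of at least 5 and 18 of at least 10. The longest, of 18, spanned 512 kb around SEMA3D, a secreted axon guidance factor on chromosome 7 (chr7:84914677-85426948). Its members had up to 74 reads, and for 10 of them −log10 q reached 10. It was no closed region, because 10 C4-2BER intervals lay within the same span, mostly in the body of SEMA3D, where the rule takes no members.
By contrast, 3 runs of 13 held 0 C4-2BER intervals of any kind. That between MEI4, a factor of meiotic recombination, and IRAK1BP1 on chromosome 6 covered 538 kb (chr6:78061494-78599903). That near SGO1, a protector of centromeric cohesion, covered 235 kb (chr3:20538750-20773686), with a median of 15 reads and a maximum of 38. That between URI1 and ZNF536 on chromosome 19 covered 154 kb (chr19:30061545-30215284) and held a summit of 130 reads. In the 1 Mb on either side, 33.3% to 38.7% of C4-2B intervals were lost and 44, 57 and 98 C4-2BER intervals were called. A run of 12 near SORCS1, a sorting receptor, had 23 C4-2BER intervals within its 1008 kb. The copy number of these regions in either line was not tested. The 5 runs held 0 androgen response elements. The element was in 2.93% of all members, so few would be met in runs of 12 to 18.

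**Figure D5:**
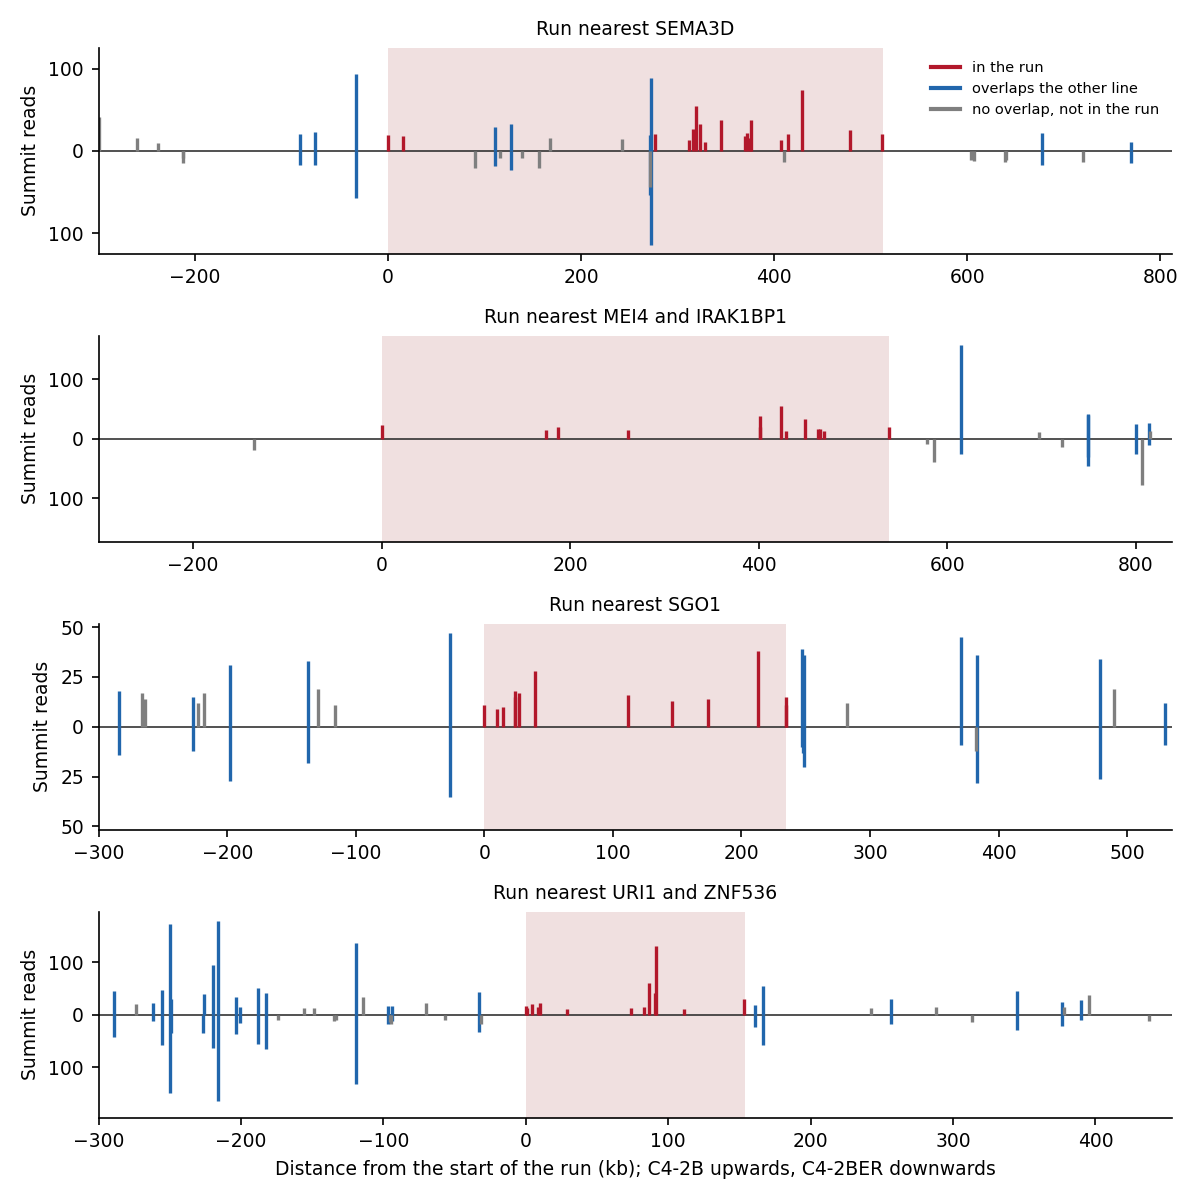
Intervals in and 300 kb around 4 of the longest runs of lost intergenic intervals are drawn by distance from the start of the run in kb (x axis; the run is shaded), with summit reads (y axis) upwards for C4-2B and downwards for C4-2BER; red marks members of the run, blue intervals that overlap the other line, grey the rest. The runs near MEI4 and IRAK1BP1, SGO1, and URI1 and ZNF536 hold 0 C4-2BER intervals, and that around SEMA3D holds 10.

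Canonical androgen targets lost a smaller share of their intergenic intervals than the background. For 22 androgen-regulated genes, 42 of 141 nearest intergenic intervals were lost, 29.8% (22.9 to 37.8), and 16 of 98 strong ones, 16.3% (10.3 to 24.9), against the background of 41.1% and 25.3%. The median over genes was 31.0%. All 8 intervals nearest to the kallikreins KLK2 (1), KLK3 (2), which encodes prostate-specific antigen, and KLK4 (5) were kept, as were 10 of 11 of TMPRSS2, an androgen-induced protease. The member of TMPRSS2 lay 68208 bp upstream with 26 reads. At SLC45A3, a prostate transporter, 4 of 6 were lost, among them one of 132 reads (−log10 q 77.3) 18627 bp from the TSS. C1orf116, STEAP1, ELL2 and PMEPA1 each had a lost interval of 60 to 106 reads, and 4 of the 42 members held an androgen response element. Promoters of 7 of 7 luminal and 6 of 6 neuroendocrine marker genes had an interval in both lists, so these calls did not separate the labelled cell types.

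Among 6 genes of the UGT2B family, some of whose products inactivate androgens, 8 of 15 intervals were lost (53.3%, 30.1 to 75.2), and 3 of 10 strong ones. The background of 41.1% lay within that interval. Genes of this family resemble each other in sequence, and the effect of reads shared between copies was not tested.
For 10 luminal regulators 78 of 176 were lost (44.3%, 37.2 to 51.7), of which MYC gave 45, and 35 of 111 strong ones (31.5%, 23.6 to 40.7). Both intervals included the background of 41.1% and 25.3%. GATA2 lost 7 of 13 and GRHL2 7 of 19. At HOXB13, a homeobox factor of the prostate, 0 of 5 were lost, and at FOXA1 0 of 1.

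For 13 neuroendocrine regulators 83 of 174 were lost (47.7%, 40.4 to 55.1), and 32 of 100 strong ones (32.0%, 23.7 to 41.7). Both intervals included the background of 41.1% and 25.3%. At 100 to 500 kb from a TSS, 45.3% of all intergenic C4-2B intervals were lost, and 29.5% of strong ones. SOX2, a stem cell factor, lost 21 of 41, FOXA2, a forkhead factor, 15 of 29, MYCN 14 of 27 and PROX1 10 of 17. By −log10 q the strongest of these were an interval 288242 bp from FOXA2 (54.1, with 60 reads) and one 201534 bp from SOX2 (52.2, with 55 reads), while a MYCN member held 68 reads at a −log10 q of 36.8. NEUROD1, a neurogenic factor, was nearest to none.
For 12 neuronal adhesion genes 124 of 251 were lost (49.4%, 43.3 to 55.5), and 42 of 131 strong ones (32.1%, 24.7 to 40.5). The first interval lay above the background of 41.1%, and the second included that of 25.3%. At 500 to 1000 kb from a TSS, 49.2% of all intergenic C4-2B intervals were lost. NCAM2 lost 31 of 47, CDH12 17 of 26 and CDH10 22 of 38, while NCAM1 lost 5 of 20 and CDH2 7 of 27. A CNTN5 interval of 85 reads (−log10 q 83.4), 1148904 bp upstream, had the highest −log10 q of any member in the 6 lists, while more reads were held by those of SLC45A3 (132), C1orf116 (106) and MYC (99). For 12 housekeeping genes 14 of 42 were lost (33.3%, 21.0 to 48.4), and 4 of 26 strong ones (15.4%, 6.15 to 33.5), shares whose intervals overlapped those of the androgen-regulated genes. These genes differ in the size of the deserts around them, and the effect of that on each list was not tested.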

How the data were processed

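The authors aligned paired reads to hg38 with Bowtie2, removed duplicates, merged the 2 replicates of each line and called peaks with MACS2, shifting reads and extending them to 200 bp. The MACS2 version is not given in the sources used here. Deposited per summit were a fold enrichment (a ratio of reads to local background, 1 added to both), −log10 p-values and −log10 q-values, and, as other values, the offset of the summit. The deposited score was not used here. Each interval was counted once, with its summit of highest −log10 p. The reads and background of a summit were solved from fold and p, and this step, overlaps and motif searches were tested on simulated data. From the lowest background, the depth of the C4-2B list was 30.2 M reads and that of the C4-2BER list 25.2 M, if MACS2 used its human genome size.

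Genes were those of GENCODE release 44, and sequences those of hg38. Motifs were matched as consensus letters on both strands within 100 bp of the summit. Beside those spelled out in the results, they were HOXB13 (CCAA followed by TAAA), E-box CAGATG, octamer (ATGC followed by AAAT), PBX-HOX (TGATT followed by NAT), TEAD (CATTCCA), RUNX (TGTGGTT), HNF4 (CAAAG followed by TCCA), and CTCF, HNF1 and NFI by their known consensus. Members, gene lists and motifs were chosen with earlier results of these data known. Named were the 10 strongest members, the 10 genes with most members, the 5 longest runs, the 5 largest clusters, the 3 most distant members and the genes of the lists. Genes named outside this rule are marked. Some genes and a motif within these rules are not reported singly here, though they are in the counts. Alternatives were other overlap rules, stricter or equal-length lists, a depth scaling and other definitions of intergenic. Python 3.11.15 with numpy 2.4.6, pandas 2.3.3 and scipy 1.17.1 was used.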

Additional observations from a re-analysis of the deposited data

How the results depend on the processing

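No paired analysis was possible because each line had 1 list, called on its merged libraries, and no replicate could be left out. No value could be tested between the lines, and weak C4-2BER sites below its threshold count as lost. Under all 12 alternatives for each motif, the androgen response element and forkhead shares stayed above, and the CTCF share below, those of kept intervals. The median distance stayed above that of kept intervals under 10 of 10. The share with another member within 10 kb, 37.2% against 46.5% for kept intervals, stayed below that of kept intervals under 11 of 12 alternatives, other than reciprocal overlap (42.4% against 41.2%). Scaling reads to the C4-2BER depth (26219 members) or placing intervals by their summit (26281) moved none of the main shares and distances beyond their counting interval. The scaling only left out C4-2B intervals whose scaled p-value fell below the lowest of the C4-2BER list, and 26219 of 26279 members remained. It therefore cannot show whether weak sites would be called again at the lower depth.

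With a reciprocal overlap of 50% counted as kept, 49.1% of intergenic intervals were lost, the median distance was 81907 bp, the CTCF share 1.02%, the share with another member within 10 kb 42.4%, and the share of neighbours lost 50.6%. With a C4-2BER interval within 500 bp counted as kept, 38.1% were lost, the distance was 88325 bp and the share within 10 kb 35.2%. At a −log10 q of at least 5, 36.2% were lost, at a distance of 87948 bp, with shares of 3.27% (androgen response element), 14.2% (forkhead), 29.1% (within 10 kb) and 38.4% (neighbours lost). At a −log10 q of at least 10, there were 9744 members, 25.3% of intergenic intervals, at 88282 bp, with shares of 4.61%, 16.5%, 0.452% (CTCF), 17.4% and 28.4%. Among the strongest C4-2B intervals, as many as the C4-2BER list holds, there were 15994 members, 32.4%, with shares of 3.73%, 14.9%, 24.96% within 10 kb and 34.8% of neighbours lost.

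With 1 TSS per gene the distance was 92644 bp. Beyond 10 kb from a TSS, 41.7% were lost, the distance was 102890 bp and 43.9% of neighbours were lost. Outside all annotated genes there were 17302 members, 41.8%, at 75614 bp, with 34.7% within 10 kb and 43.9% of neighbours lost. In a window of 250 bp the androgen response element share was 3.51% and the forkhead share 18.1%. At the GC content of kept intervals the forkhead share was 11.1% and the CTCF share 0.879%. Another member lay within 5 kb for 21.9% and within 25 kb for 61.9%, and 42.5% of the 5 neighbours on each side were lost. The cause of these moves was not tested, and the lists were smaller at stricter thresholds. The weighting by GC content of the other motifs was chosen after seeing the data.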
